A study of Sorghum bicolor with 63 samples.

Results

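Nitrate taken up by roots is reduced to nitrite by nitrate reductase and then to ammonium by nitrite reductase, an enzyme of the plastid that carries siroheme as a cofactor and draws its electrons from ferredoxin. Many root genes answer nitrate itself within minutes, which makes the primary nitrate response one of the fastest nutrient responses known in plants. Genes for nitrate uptake, for reduction and its cofactors, for the supply of reducing power and for transcription factors (TFs) take part in it.

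The genes described here are primary root genes of sorghum whose RNA fell after nitrate was withdrawn and rose just after it was returned. They were chosen on group means of log2(TPM + 1); TPM scales each library's transcripts to the same total. A gene had to be lower after 3 h without nitrate than at 0 h by more than 1, lower at 0.5 h than at 0 h by any amount, and higher at 24.5 h, just after nitrate was returned, than at 24 h by more than 1, with a mean of at least 5 TPM over the 21 primary root libraries. The rule was met by 71 of 35567 genes. Of 6 genes of nitrate reduction and reductant supply named for leaving out (NIR1, NR1, NR2, G6PD1, RFNR and PGM), 5 met it, and 66 members remained. Because the rule used the primary root libraries of 0, 0.5, 3, 24 and 24.5 h, values of these libraries are given as a description without a test. Tests are given for lateral root and leaf, which the rule did not use, and for the primary root at 48 h, whose libraries entered the rule only through the mean level. Whether same-numbered libraries of different tissues came from the same plants is not stated.

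All plants were of genotype BTx623, grown in nutrient solution with nitrate (normal nitrogen, 0 h). They were moved to solution without nitrate salts (nitrogen deprivation at 0.5, 3 and 24 h). By the paper's methods, chlorides of calcium and manganese took the place of calcium nitrate and manganese sulfate. Nitrate was then returned (nitrogen recovery at 24.5 and 48 h), and a further group at 48 h is labelled as the recovery control (NRC), whose treatment neither the labels nor the methods describe. The growth protocol places the last recovery sampling 48 h after the return of nitrate, and the methods place it 24 h after. Leaf, lateral root and primary root each had 7 groups of 3 libraries, 63 libraries in all, each made from the pooled tissue of several plants. By their labels the samplings at 0.5, 3 and 24.5 h fell at another hour of the day than those at 0 and 24 h, which cannot be told apart from the nitrate treatment, and fewer cells of a type cannot be told apart from less RNA per cell.

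Some libraries stood apart. Lateral root replicate 1 of 0 h, as labelled, had 4281 TPM of LHCB5 (a light-harvesting protein) and 15523 TPM of PPDK2 (an enzyme of C4 photosynthesis), against at most 56.6 and 131 TPM in the other 20 lateral root libraries and 1028 to 6274 and 9234 to 21818 TPM in leaf. NRT2.1 (SORBI_3004G009400), a nitrate transporter gene of roots, was listed at 0 in it. Its correlation across genes was 0.994 with leaf 48 h control replicate 3, and 0.735 and 0.726 with the other lateral root libraries of 0 h. It goes against its label, so counts and 3 h values of lateral root are given with and without it, and at the other samplings it enters only the shared estimate of spread. In primary root, 24.5 h replicate 3 had 30736 genes at 1 TPM or more (at most 21576 in the others), with 268 TPM of LHCB5 and 1398 TPM of PPDK2, and 3 h replicate 3 had 133 and 402 TPM of these leaf markers. Their part in the choice of members was not tested, but without primary root 24.5 h replicate 3 the rule kept 59 of the 66 members, and without 3 h replicate 3 it kept 57. In leaf, replicate 1 of the 48 h control had 1028 TPM of LHCB5, against at least 3326 TPM in the other leaf libraries, and the lowest mean correlation with its group in leaf (0.968).

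The study's supplementary tables name or describe 12 of the 66, and 54 carry an identifier alone, among them 1 annotated non-coding RNA (ENSRNA049485365). The 12 hold 5 genes of metabolism and transport. UPM2 (SORBI_3003G229600) encodes uroporphyrinogen methyltransferase, which makes the precursor of siroheme. MDAR6 (SORBI_3007G038600) is a monodehydroascorbate reductase, which regenerates ascorbate. A chloroplastic malate dehydrogenase (SORBI_3007G137600) interconverts malate and oxaloacetate. AMT1.1a (SORBI_3006G143100) is an ammonium transporter, and SORBI_3003G278600 is listed as probable sulfate transporter 3.5. The other 7 are TFs: MYB121 (SORBI_3001G219200), NAC4 (SORBI_3002G080100), NAC125 (SORBI_3005G064600), the ethylene-response factor EREB97 (SORBI_3006G210300), both genes named WRKY124 (SORBI_3010G209100 and SORBI_3010G209200) and a WRKY repressor (SORBI_3002G202700) whose description was carried over from rice. In the study's projected network, MYB121 has edges to NAC4, AMT1.1a and PGM, and NAC125 has an edge to NIR1.

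Identifiers of 17 members lie close together (steps of at most 1000 in the gene number), as in SORBI_3006G235800 and SORBI_3006G235900, the run SORBI_3007G077001 to SORBI_3007G077200, and both WRKY124 genes. Such neighbours may be copies that share reads, which was not examined, so their values are not taken as independent. Mean levels in primary root ran from 5.01 to 405 TPM with a median of 18.2 TPM. 12 members were at 100 TPM or more and 35 were under 20 TPM.

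In primary root the members' median difference was -1.69 for 3 h minus 0 h (range -3.58 to -1.005), -0.76 for 0.5 h minus 0 h (-3.12 to -0.07) and 1.58 for 24.5 h minus 24 h (1.01 to 4.01), all on the log2(TPM + 1) scale and all fixed in sign by the rule. The libraries of 3 h lay below those of 0 h without overlap for 43 of 66 members, where 17.1% of all 23186 genes tested did so, and above them for 0, where 16.3% did so. Those of 24.5 h lay above those of 24 h for 57 and below them for 0, where 12.3% and 9.14% did so. The rule used these libraries, so nothing is read from either count. At 24 h, which entered the rule only beside 24.5 h, 65 members were below 0 h, 53 of them by more than 1, with a median of -1.59. From 3 h to 24 h the median difference was 0.06, with 36 members above and 30 below 0. At 24.5 h the median was 0.07 above 0 h, with 36 members above 0 h and 30 below. At 48 h, with nitrate back, 60 members were below 0 h, 37 of them by more than 1, with a median of -1.20. In the 48 h control 55 were below 0 h, with a median of -0.70. The rule favoured genes high at 0 h, and its part in these values was not tested.

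**Figure D1:**
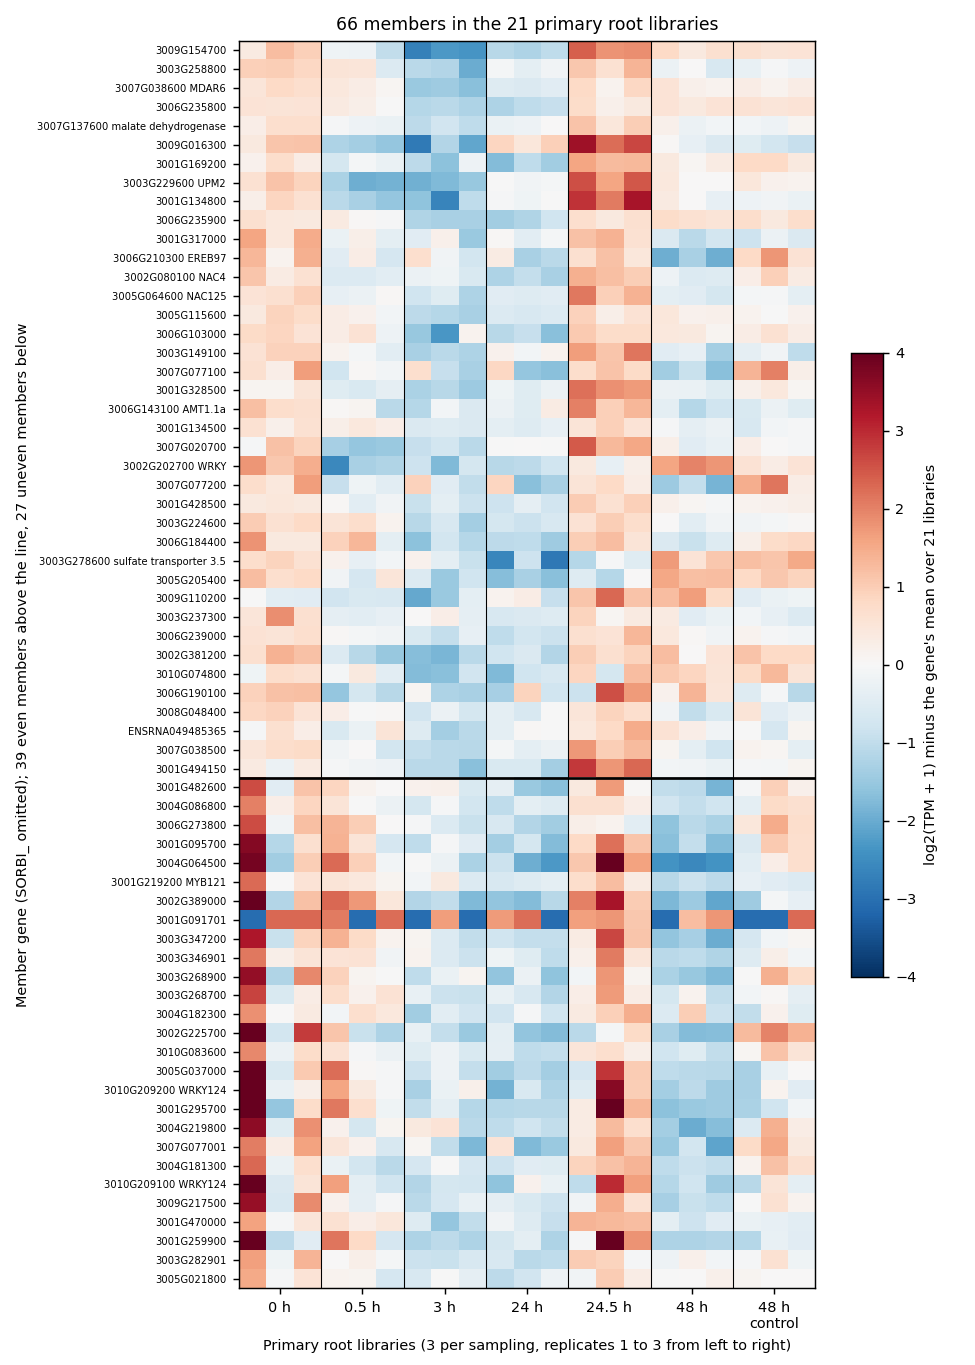
Each row is a member and each column a primary root library, in time order with the 48 h control last; colour is log2(TPM + 1) minus the gene's mean over the 21 libraries. The medians of the 39 even members lie at -1.05 to -1.09 in the 3 h libraries and at 0.94 to 1.00 in the 24.5 h libraries, and those of the 27 uneven members at 2.69 in replicate 1 of 0 h and 1.70 in replicate 2 of 24.5 h.

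The values just inside and outside each threshold were close. For 3 h minus 0 h, SORBI_3005G021800 (-1.005) and SORBI_3009G110200 (-1.01) were the last members in, and SORBI_3008G016200 (-0.99) and SORBI_3010G115000 (-0.98) the first genes out. For 24.5 h minus 24 h, the malate dehydrogenase (SORBI_3007G137600, 1.01) and SORBI_3005G205400 (1.02) were in, and SORBI_3001G302800 and SORBI_3006G249400 (both 0.99) were out. For 0.5 h minus 0 h, SORBI_3002G389000 (-0.07) and SORBI_3001G259900 (-0.08) were in, and SORBI_3002G189000 (0.02) and SORBI_3002G361500 (0.04) were out. For mean level, SORBI_3001G494150 (5.01 TPM) and SORBI_3007G038500 (5.06 TPM) were in, and SORBI_3004G165100 (4.54 TPM) and SORBI_3003G176300 (4.49 TPM) were out.

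The members fell into groups by how well their 0 h libraries held together. For 39 of them, called even here, the highest primary root library of 0 h was at most 3 times the lowest. For the other 27, called uneven, it was more than 3 times, and in 26 of these the highest was replicate 1. These are 40.9% of the members. Of 17931 primary root genes with at least 5 TPM in 3 libraries, 4.42% had 0 h libraries over 3 times apart. The rule used these 0 h libraries and so favours genes with 1 high library there. The filter on level differs too, so nothing is read from these shares. The ratio of 3 was chosen after the values were seen. Even members were lowest at 3 h in 23 of 39 cases, and uneven members were lowest at 48 h in 19 of 27. The median over the 39 even members, as deviation of log2(TPM + 1) from each gene's own mean, was 0.58, 0.70 and 0.67 in the 0 h libraries and -1.05, -1.08 and -1.09 in the 3 h libraries. Over the 27 uneven members it was 2.69, -0.46 and 0.86 in the 0 h libraries and 0.34, 1.70 and 0.99 in the 24.5 h libraries. In the 0 h libraries of leaf it was 0.85, -0.23 and 0.14 over the uneven members. In those of lateral root it was -1.65, -0.63 and 1.05, the first being the library that goes against its label. With primary root replicate 1 of 0 h left out, the rule kept 33 of the 39 even and 4 of the 27 uneven members. Membership thus rests on that 1 library for most uneven members. Which part of the rule they failed without it is not given here. All primary root 0 h libraries lay above those of 3 h for 8 of the 27 uneven and 35 of the 39 even members. The division into even and uneven used the same 0 h libraries, so nothing is read from these counts. Primary root replicate 1 of 0 h had 5.36 TPM of LHCB5, against 5.21 and 6.26 TPM in replicates 2 and 3. It had 80.6 TPM of PPDK2, against 57.0 and 68.4 TPM. These markers speak to leaf tissue alone, and other ways in which this library may differ were not tested.

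UPM2 was low from the first sampling without nitrate. Its primary root values were 122, 177 and 149 TPM at 0 h, 32.1, 19.9 and 20.6 TPM at 0.5 h, 20.3, 22.7 and 26.8 TPM at 3 h, 78.5, 71.6 and 74.2 TPM at 24 h and 476, 240 and 449 TPM at 24.5 h. It had reached its 3 h level by 0.5 h, the level at 24 h lay between those of 3 h and 0 h, and every library of 24.5 h exceeded every library of 0 h. SORBI_3009G016300, which has no description, was also low by 0.5 h. It had 29.2, 26.8 and 23.3 TPM at 0.5 h, against 92.5, 152 and 155 TPM at 0 h, and 738, 330 and 449 TPM at 24.5 h, against 126, 95.4 and 136 TPM at 24 h. Its libraries of 24 h had overlapped those of 0 h again before nitrate was returned.

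MDAR6 had 288, 268 and 228 TPM at 0.5 h and 76.4, 80.2 and 67.3 TPM at 3 h, against 300, 379 and 342 TPM at 0 h, and at 24.5 h it was back at 373, 237 and 384 TPM, against 151, 143 and 157 TPM at 24 h. Its 0.5 h libraries, like those of the malate dehydrogenase (128 to 149 TPM), lay below the 0 h range and above those of 3 h. The malate dehydrogenase had 73.9, 90.3 and 75.9 TPM at 3 h, against 186, 246 and 247 TPM at 0 h. SORBI_3009G154700, the member of highest mean level and without a description, had 41.2, 54.8 and 52.2 TPM at 3 h, against 355, 641 and 526 TPM at 0 h, and 1430, 943 and 990 TPM at 24.5 h, against 126, 115 and 136 TPM at 24 h. For these 3 genes neither pair of groups overlapped.

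AMT1.1a had 17.04, 35.7 and 25.7 TPM at 3 h, against 90.1, 64.4 and 60.6 TPM at 0 h, and 161, 75.5 and 98.4 TPM at 24.5 h, against 33.0, 27.5 and 48.7 TPM at 24 h. The sulfate transporter was lowest at 24 h, at 0.837, 5.30 and 0.561 TPM, and at 24.5 h it had 4.14, 9.90 and 7.07 TPM, so that both groups overlapped and all 3 libraries stayed below the 16.2 to 19.8 TPM of 0 h.

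Among the TFs, NAC125 and NAC4 were even members. NAC125 had 39.3, 49.1 and 28.5 TPM at 3 h, against 101, 108 and 134 TPM at 0 h, and 300, 135 and 182 TPM at 24.5 h, against 47.9 to 50.4 TPM at 24 h. The WRKY repressor was lowest at 0.5 h, with 1.82, 5.91 and 6.26 TPM, against 56.1, 34.7 and 44.9 TPM at 0 h, and it stood at 20.8, 12.3 and 18.8 TPM at 24.5 h. The WRKY124 genes and MYB121 were uneven members. WRKY124 (SORBI_3010G209200) had 0.794, 2.66 and 4.04 TPM at 3 h, against 108, 2.56 and 4.21 TPM at 0 h, and 2.09, 54.3 and 7.76 TPM at 24.5 h, against 0.183, 1.86 and 0.877 TPM at 24 h. A single library of each group carried its level at 0 h and at 24.5 h. MYB121 had 115 TPM in replicate 1 of 0 h, against 23.6 and 34.4 TPM in replicates 2 and 3.

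**Figure D2:**
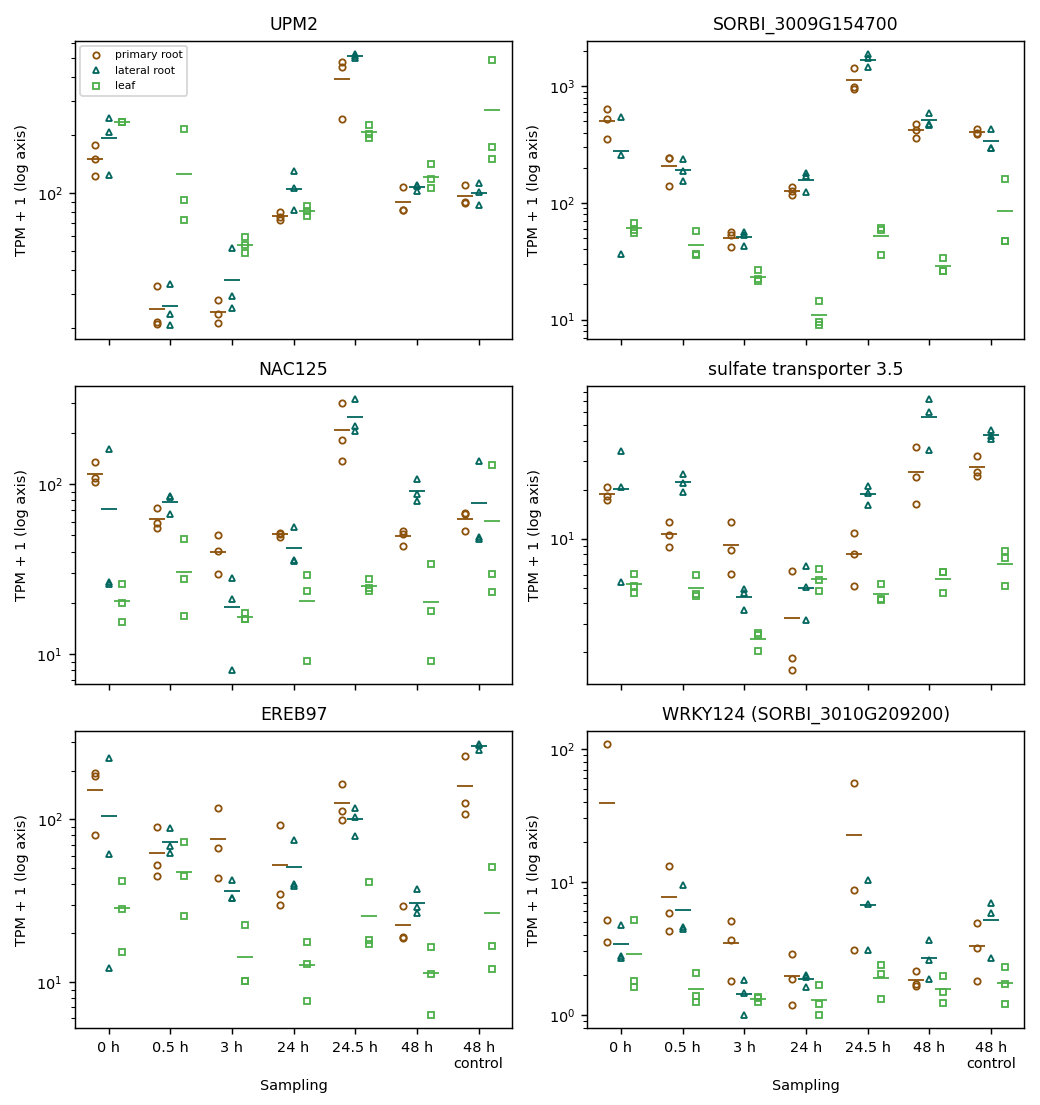
TPM + 1 on a log axis for 6 members in each library of primary root, lateral root and leaf over the 7 samplings; horizontal marks are group means. UPM2, SORBI_3009G154700 and NAC125 peak at 24.5 h in both root types, EREB97 is low at 48 h beside the 48 h control in both, and WRKY124 stands high in 1 primary root library of 0 h (108 TPM) and 1 of 24.5 h (54.3 TPM).

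Lateral root libraries, which the rule did not use, answer whether the members moved in another root tissue. Differences were tested with limma on log2(TPM + 1) over all genes at 1 TPM or more in at least 3 libraries of the tissue. A gene was called at a Benjamini-Hochberg adjusted p under 0.05 with a difference over 1 in size. All 66 members passed the filter in lateral root. At 0.5 h, 5 were called higher than at 0 h and 4 lower, where 1729 and 273 of all 23151 genes were. Their median difference was 0.32, with 47 above 0 and 19 below. Without the library labelled 0 h replicate 1, 5 were higher and 12 lower, where 1412 and 621 of 23017 genes were. The median was then -0.03, with 32 above 0 and 34 below. Without it the 39 even members had a median of -0.48, with 27 below 0, 10 called lower and 1 higher. The 27 uneven members had a median of 0.44, with 20 above 0, 4 called higher and 2 lower. With all libraries these medians were 0.15 and 1.01. The fall at 0.5 h that the rule fixed in primary root was thus not general in lateral root. For even members the sign of the median turned on the library labelled 0 h replicate 1. At 3 h, 21 of 66 were lower than at 0 h and 0 were higher, where 1.96% of all 23151 genes tested were called lower and 4.91% higher. Without the library labelled 0 h replicate 1, 44 were lower and 0 higher, where 3.76% of 23017 genes were called lower and 3.78% higher. The 44 include all of the 21. The members' median difference was -1.05 with all libraries and -1.74 without that one, beside 0.18 and -0.04 over all genes tested. All libraries of 3 h lay below all of 0 h for 21 members, where 6.94% of all genes did so, and without that library for 47, where 23.3% did so (above for 0, where 17.7% did so). When the fit held only the groups of 3 h and 0 h, that library among them, 0 of 57 members passed (limma with Benjamini-Hochberg adjustment). Of these, 18 had an unadjusted p under 0.05. The share over all genes is not given for this fit, and it was not run without that library.

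UPM2 had 24.4, 28.4 and 50.8 TPM in lateral root at 3 h, against 123, 243 and 208 TPM at 0 h, a log2 difference of -2.45 ± 0.28 (SE; adjusted p = 0.000104, limma with Benjamini-Hochberg adjustment) and of -2.74 ± 0.25 without the doubted library. MDAR6 had 94.3, 87.1 and 99.4 TPM, against 104, 538 and 475 TPM, of which the 104 TPM is that library. Its difference was -1.66 ± 0.40 with it and -2.42 ± 0.13 without it. AMT1.1a fell by 2.45 ± 0.58 with it and by 1.73 ± 0.50 without it, and the sulfate transporter by 1.84 ± 0.47 and 2.62 ± 0.31.

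By the naming rule, the 5 members with the largest calls were SORBI_3001G134800 (-4.58 ± 0.70), SORBI_3003G149100 (-3.57 ± 0.36), SORBI_3007G077001 (-2.81 ± 0.55), SORBI_3006G239000 (-2.66 ± 0.46) and SORBI_3006G235800 (-2.56 ± 0.19). The first of them had 6.58 to 17.4 TPM at 3 h, against 1824, 113 and 137 TPM at 0 h, so that part of its size comes from the doubted library, without which it was -3.30 ± 0.32. SORBI_3003G149100 had 19.3, 23.9 and 18.5 TPM, against 326, 208 and 243 TPM, and was at -3.40 ± 0.38 without that library. SORBI_3006G239000 had 86.3 TPM in that library, against 13.3 and 14.6 TPM in the other 0 h libraries. Without it, SORBI_3007G077001 was at -3.63 ± 0.41, SORBI_3006G239000 at -1.81 ± 0.22 and SORBI_3006G235800 at -2.76 ± 0.17, so that the order of the 5 depends on it.

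The malate dehydrogenase was at -0.58 ± 0.44 (adjusted p = 0.374, limma) with all libraries and at -1.42 ± 0.16 without the doubted one, where it was called. SORBI_3009G154700 was at -1.78 ± 0.60 (adjusted p = 0.0691, limma) and at -2.90 ± 0.27 without it. NAC125 was at -1.52 ± 0.59 (adjusted p = 0.102, limma) and at -1.96 ± 0.61 without it. The call of these 3 genes in lateral root turned on 1 library. NAC4, MYB121 and both WRKY124 genes were not called either way. Of the uneven members, 5 of 27 were called lower with the doubted library and 14 without it, and of the even members 16 of 39 and 30. In lateral root, too, the remaining 0 h libraries differed: NAC125 had 25.5 TPM in replicate 2 and 160 TPM in replicate 3.

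**Figure D3:**
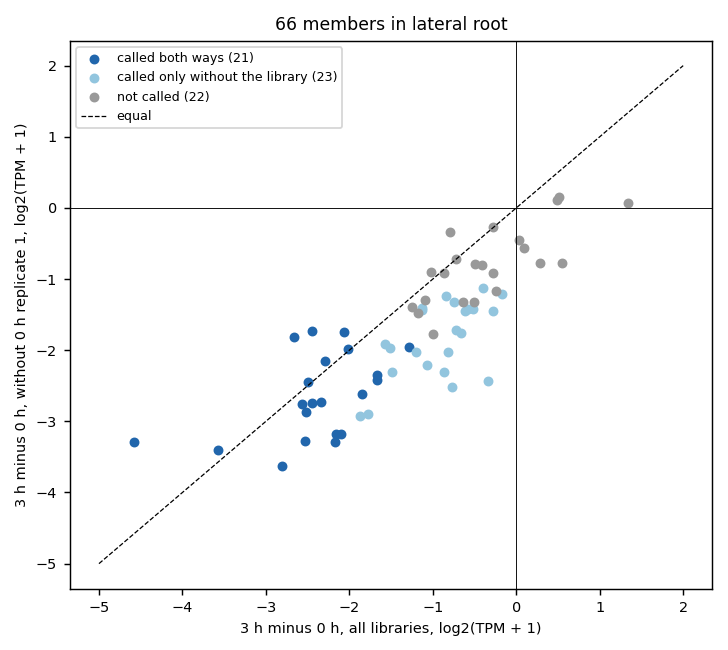
Each point is a member; the x axis is the lateral root difference of 3 h minus 0 h in log2(TPM + 1) with all libraries, the y axis the same without the library labelled 0 h replicate 1. 21 members were called lower both ways and 23 only without that library, with 22 not called.

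After nitrate was returned, at 24.5 h, 64 of 66 members were above 24 h in lateral root, with a median difference of 1.60, beside -0.06 over all genes tested. 21 members were called higher and 0 lower, where 1.24% of all genes were called higher. Neither group holds the doubted 0 h library, which enters only the shared estimate of spread. Without it 45 members were higher and 0 lower, where 2.68% of 23017 genes were called higher, and the 45 include all of the 21. The libraries of 24.5 h lay above those of 24 h without overlap for 58 of 66 members, where 10.7% of all genes did so.

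UPM2 had 511, 523 and 499 TPM in lateral root at 24.5 h, against 105, 129 and 80.4 TPM at 24 h (2.30 ± 0.28, adjusted p = 0.00018, limma). SORBI_3009G154700 had 1878, 1454 and 1731 TPM, against 170, 181 and 122 TPM (3.43 ± 0.60, adjusted p = 0.00508, limma). Beside it, the largest calls were SORBI_3002G389000 (3.46 ± 0.70), SORBI_3004G064500 (3.26 ± 0.66), SORBI_3001G494150 (3.23 ± 0.40) and SORBI_3001G169200 (2.78 ± 0.31). SORBI_3002G389000 had 27.2, 32.1 and 43.7 TPM at 24.5 h, against 1.71, 3.39 and 1.62 TPM at 24 h. It is an uneven member, and in lateral root its 3 libraries of 24.5 h lay close together.

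NAC4 had 203, 215 and 297 TPM at 24.5 h in lateral root, against 41.4, 39.6 and 31.6 TPM at 24 h (2.62 ± 0.45, adjusted p = 0.0043, limma), and NAC125 rose by 2.55 ± 0.59. The sulfate transporter rose by 1.97 ± 0.47, to 15.1, 20.1 and 18.2 TPM, against 4.01, 5.79 and 2.18 TPM at 24 h. AMT1.1a (1.68 ± 0.58), MDAR6 (1.13 ± 0.40) and the malate dehydrogenase (1.45 ± 0.44) did not pass with all libraries, at adjusted p = 0.23, 0.246 and 0.143 (limma), although the libraries of the groups did not overlap for any of them. Each passed without the doubted library. EREB97 (1.02 ± 0.65) and WRKY124 SORBI_3010G209100 (1.26 ± 0.44) passed neither way. The members below 0 were SORBI_3001G091701 (-3.11, adjusted p = 0.471, limma) and SORBI_3002G225700 (-0.25 ± 0.65), neither of them called and both uneven.

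Leaf has no part in root uptake but reduces nitrate, and 57 of the 66 members passed the filter there. At 0.5 h against 0 h, 0 of them were called, as were 0 of all leaf genes tested, with 28 members above 0 and 29 below. At 3 h, 15 were lower than at 0 h and 1 was higher, where 2.58% of all 19882 leaf genes tested were called lower and 5.54% higher. The members' median was -0.57, beside 0.15 over all leaf genes tested. Even members made up 14 of the 15. The libraries of 3 h lay below those of 0 h for 25 members, where 14.3% of all leaf genes did so, and above them for 3, where 32.4% did so. UPM2 had 53.1, 47.8 and 58.0 TPM in leaf at 3 h, against 234, 233 and 234 TPM at 0 h (-2.12 ± 0.35, adjusted p = 0.000647, limma). MDAR6 fell by 1.21 ± 0.16, the sulfate transporter by 1.13 ± 0.22 and SORBI_3009G154700 by 1.37 ± 0.35. The malate dehydrogenase, at 123, 107 and 107 TPM in leaf at 3 h and 125, 126 and 124 TPM at 0 h, was not called (-0.16 ± 0.31).

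The largest leaf call was SORBI_3003G149100, with 20.1, 15.4 and 21.3 TPM at 3 h, against 284, 351 and 392 TPM at 0 h (-4.11 ± 0.27). After UPM2, SORBI_3003G258800 (-2.06 ± 0.21) and SORBI_3001G470000 (-1.94 ± 0.54) were next among the falls. Of the 15 members lower in leaf, 12 were also among the 21 lower in lateral root, and 14 among the 44 lower there without the doubted library. The 1 member higher in leaf was the WRKY repressor SORBI_3002G202700, with 49.4 to 76.3 TPM at 3 h, against 13.6, 7.77 and 7.24 TPM at 0 h (2.58 ± 0.70, adjusted p = 0.0189, limma). In lateral root its difference was -1.49 ± 0.53 with all libraries and -2.30 ± 0.38 without the doubted one. Its leaf call was lost when leaf 3 h replicate 2, 0 h replicate 2 or 0 h replicate 3 was left out.

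Few members were called in leaf after the return of nitrate. At 24.5 h, 1 member was higher and 1 lower than at 24 h, where 0.126% and 0.176% of all leaf genes were called. SORBI_3009G154700 had 59.6, 34.8 and 57.8 TPM at 24.5 h, against 8.58, 13.4 and 7.98 TPM at 24 h (2.23 ± 0.35, adjusted p = 0.00686, limma), and SORBI_3006G239000 had 95.1, 82.9 and 96.5 TPM, against 217, 240 and 202 TPM (-1.25 ± 0.15, adjusted p = 0.00192, limma). UPM2 had 193, 202 and 224 TPM in leaf at 24.5 h and 74.8, 79.9 and 84.7 TPM at 24 h, which did not pass (1.36 ± 0.35, adjusted p = 0.0848, limma). In leaf 45 of 57 members were above 0, with a median of 0.60, beside 0.00465 over all leaf genes. The libraries of 24.5 h lay above those of 24 h for 23 members and below them for 2, where 9.97% and 10.2% of all leaf genes did so.

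The difference between lateral root and leaf in the response to returned nitrate was tested itself, over 18565 genes measured in both. For 7 of 57 members the rise was larger in lateral root and for 0 it was larger in leaf, where 0.539% of all genes were called on the lateral root side. Without the doubted library the count was 13, where 1.38% of all genes were called. The 7 were all even members. They were SORBI_3006G235900 (2.50 ± 0.36), SORBI_3006G239000 (2.49 ± 0.49), SORBI_3003G224600 (2.29 ± 0.38), the sulfate transporter (2.25 ± 0.53), SORBI_3001G169200 (1.99 ± 0.46), SORBI_3006G235800 (1.98 ± 0.25) and SORBI_3001G428500 (1.97 ± 0.30), as lateral root minus leaf. SORBI_3006G235800 had 208, 216 and 186 TPM in lateral root at 24.5 h, against 45.8, 62.0 and 51.0 TPM at 24 h, while in leaf it had 74.2, 55.2 and 80.6 TPM at 24.5 h and 73.9, 73.1 and 67.5 TPM at 24 h. It had fallen in leaf at 3 h (-1.56 ± 0.17).

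**Figure D4:**
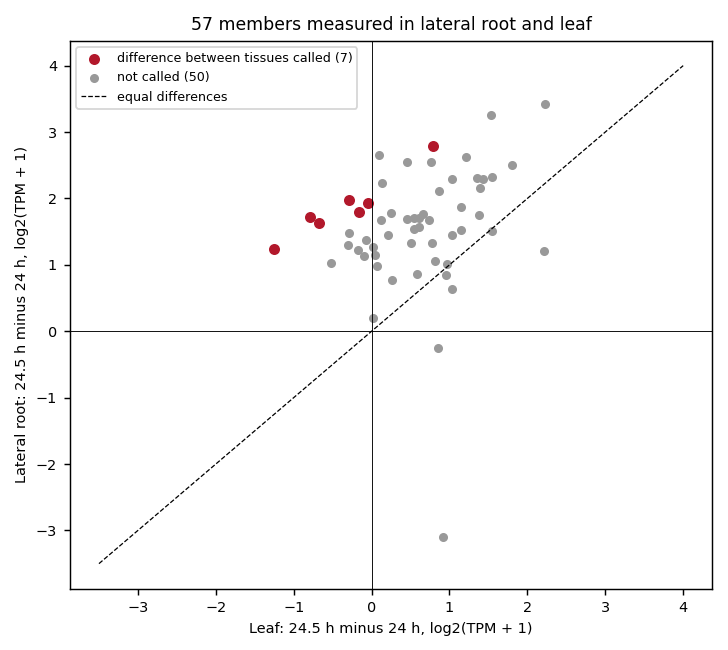
Each point is 1 of the 57 members measured in both tissues; the x axis is the leaf and the y axis the lateral root difference of 24.5 h minus 24 h in log2(TPM + 1), with a dashed line of equal differences. The 7 members whose difference between tissues was called lie well above the line; SORBI_3001G169200 alone of them was above 0 in leaf (0.79).

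At 48 h, plants under recovery were set against the 48 h control. In primary root 0 members were higher and 2 lower, where 0.285% and 0.203% of all 23186 genes were called. EREB97 had 17.9, 28.3 and 17.8 TPM at 48 h, against 126, 245 and 107 TPM in the control (-2.78 ± 0.47, adjusted p = 0.00794, limma), and SORBI_3007G077200 had 5.15, 7.78 and 3.63 TPM, against 45.2, 73.8 and 19.8 TPM (-2.72 ± 0.59, adjusted p = 0.0474, limma). Same-numbered libraries of these groups deviated together, and with the replicate number as a block 1 member was called, EREB97. The 48 h libraries lay below those of the control for 27 members and above them for 5, where 9.65% and 7.29% of all genes did so. The count of calls ran from 0 to 2 when single libraries were left out, being 0 without 48 h replicate 1 and 0 without control replicate 2.

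In lateral root 8 members were lower at 48 h than in the control and 0 higher, where 0.173% of all genes were called lower and 0.125% higher. Without the doubted 0 h library 17 were lower and 0 higher, where 0.704% and 1.04% were, and the 17 include all of the 8. EREB97 had 25.5, 36.2 and 27.8 TPM at 48 h, against 266, 290 and 285 TPM in the control (-3.20 ± 0.65, adjusted p = 0.0458, limma). SORBI_3007G077200 had 4.14, 6.69 and 3.06 TPM, against 92.7, 56.5 and 57.3 TPM, and SORBI_3002G225700 had 0.121, 0.498 and 0.0331 TPM, against 22.9, 20.5 and 26.4 TPM (-4.33 ± 0.65). Both genes called in primary root were among the 8. The remaining members of the 8 were SORBI_3007G077001, SORBI_3007G077100, SORBI_3003G268900, SORBI_3006G273800 and SORBI_3010G083600. The 48 h libraries lay below those of the control for 25 members and above them for 6, where 14.8% and 11.1% of all genes did so. With all 0 h libraries kept, the count was 0 without any 1 of the 48 h libraries or without control replicate 2.

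UPM2, MDAR6 and the malate dehydrogenase were not among the genes called at 48 h in either root type. UPM2 had 106, 80.9 and 81.0 TPM in primary root at 48 h and 109, 89.2 and 87.8 TPM in the control (-0.10 ± 0.23). MDAR6 had 312, 247 and 240 TPM at 48 h and 265, 239 and 263 TPM in the control (0.05 ± 0.16).

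Primary and lateral roots, which share no library, had like differences at 48 h. Across the 66 members the Pearson correlation between the root types was 0.876, and across all 22588 genes tested in both it was 0.514, given as a description, since genes of 1 library are not independent. In both root types 17 members were below -1, as were 0.686% of all genes. Of these, 14 were uneven and 3 even members. The median difference of the uneven members was -1.18 in primary root and -1.59 in lateral root, that of the even members -0.11 and 0.30. In leaf 0 members were called at 48 h (limma), where 0.0101% of all leaf genes were called higher. An unadjusted p under 0.05 (limma) was met by 17 of 57 members and by 2560 of all 19882 leaf genes tested. The members' median was -0.45, beside -0.12 over all leaf genes. The leaf libraries of 48 h lay below those of the control for 16 members and above them for 0, where 8.37% and 3.15% of all leaf genes did so. Replicate 1 of the leaf control stood apart here too. UPM2 had 118, 105 and 140 TPM in leaf at 48 h, against 487, 173 and 149 TPM in the control, and SORBI_3009G154700 had 25.0, 25.2 and 32.7 TPM, against 158, 45.9 and 46.3 TPM. Without control replicate 1 the leaf count stayed at 0 and the median was -0.35, and the part of that library in these values was not tested further.

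**Figure D5:**
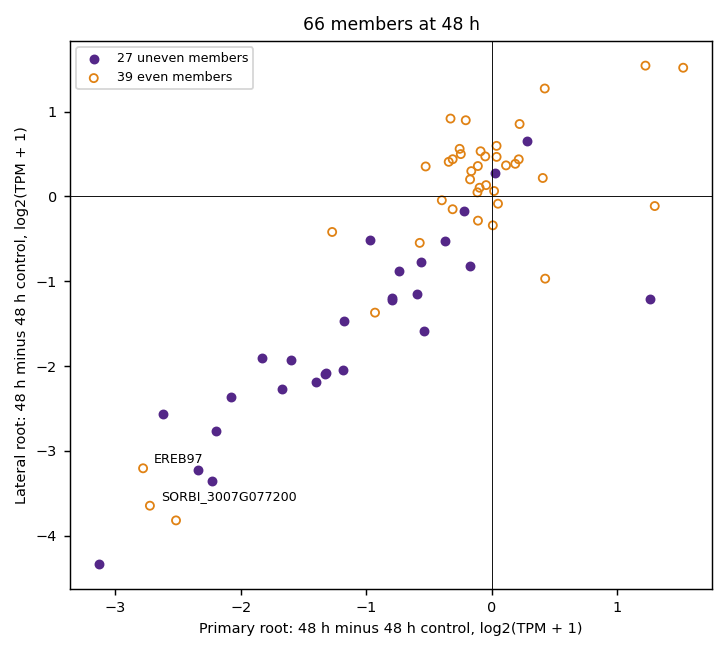
Each point is a member; the axes are 48 h minus 48 h control in log2(TPM + 1), in primary root (x) and lateral root (y), for the 27 uneven (filled) and 39 even (open) members. Most even members lie near 0 on both axes, and 17 members lie below -1 on both.

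Other genes of the pathway came from lists in the study's network tables. Of 10 genes of nitrate assimilation outside the members that were tested in lateral root, 2 were lower and 0 higher at 3 h (4 and 0 without the doubted library), and 1 was higher and 0 lower at 24.5 h against 24 h (2 and 0 without it). NIR1, nitrite reductase itself, fell by 1.77 at 3 h (by 1.68 without the doubted library) and rose by 2.00 at 24.5 h in lateral root, and fell by 2.58 in leaf at 3 h. In leaf 4 of 10 were lower at 3 h. Of 14 other genes of nitrogen transport in lateral root, 3 were higher and 0 lower at 3 h (4 and 0 without the doubted library), and 0 were called at 24.5 h against 24 h (1 higher and 0 lower without it). Both NRT2.1 genes rose at 3 h (SORBI_3004G009400 by 3.20 and by 2.31 without the doubted library, SORBI_3004G009500 by 3.93 and 2.35), so that they moved against AMT1.1a. Of 233 other network TFs tested in lateral root, 21 were higher and 4 lower at 3 h, and 19 were higher and 1 lower at 24.5 h against 24 h (15 and 6, then 25 and 7, without the doubted library).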

How the data were processed

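The members, gene lists and tests were chosen with earlier results of these data known. Per the labels and methods, the authors used Trimmomatic for trimming, STAR for alignment against BTx623 and StringTie for quantification of poly(A) libraries. The deposited values are TPM, a column per library, each summing to 1000000. TPM keep no depth, so the number of reads is unknown and precision rests on 3 libraries per group. Whether replicates came from separate tanks is not stated, so p-values measure the spread between these samples.

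Differences were fitted with limma 3.58.1 (eBayes with a trend) in R 4.3.3, on log2(TPM + 1), all 7 groups of a tissue in 1 fit. The scale understates changes of low genes. Genes named are the members on the study's lists, the 10 of highest mean level, the 5 largest non-overlapping calls of 4 comparisons, and threshold neighbours. Other members named were chosen after their values were seen. Within tissues, same-numbered libraries deviated together only at 48 h in primary root (correlations 0.183, 0.346 and 0.254), where the block is given. Across tissues this was not checked. Alternatives were a pseudocount of 0.1, other filters, median-of-ratios scaling, a replicate block, fits of 2 groups and libraries left out. Non-overlap in lateral root without 0 h replicate 1 and the leaf median without 48 h control replicate 1 were added after the data were seen. In simulated data 200 genes were changed by 2. Of these, 195 were recovered for primary root at 48 h, 144 for lateral root at 24.5 h and 189 for leaf at 24.5 h. False calls numbered 4, 12 and 5. The members' median differences in these comparisons were smaller, at -0.31, 1.60 and 0.60. How the changed genes and the noise were drawn is not given here. The figures are therefore not read as the power or error rate of the tests on members. Promoters and sequences were not analysed here.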

Additional observations from a re-analysis of the deposited data

Results flagged for a closer look

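The response to returned nitrate differed between lateral root and leaf for 7 of 57 members by the test of the difference itself (limma, 24.5 h against 24 h). 4 of the genes named by rule were among them. The difference, as lateral root minus leaf on the log2(TPM + 1) scale, was 1.99 for SORBI_3001G169200, 2.25 for the sulfate transporter SORBI_3003G278600, 1.98 for SORBI_3006G235800 and 2.49 for SORBI_3006G239000. SORBI_3006G235800 and SORBI_3006G239000 did not rise in leaf (-0.05 and -1.25).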

How the results depend on the processing

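46 pairs of a named gene and a comparison were called, and of their 582 alternatives 466 kept the call, 116 lost it and 0 changed direction, 84 of the losses when a library was left out. The cause was not tested for any of the following. The share of all genes called changes with the setting too. In lateral root at 24.5 h, 1.24% were called higher with all libraries and 2.68% without the doubted one. For most of the settings below it is not given, so the counts alone do not set the members beside all genes. Members called in lateral root at 3 h against 0 h were 33 with median-of-ratios scaling and 14 to 44 with single libraries left out. They were 0 in a fit of 2 groups, which kept the doubted library. At 24.5 h against 24 h they were 52 in a fit of 2 groups, and 12 to 45 with single libraries left out, being 13 without 24.5 h replicate 2, 12 without 24.5 h replicate 3 and 13 without 24 h replicate 3. At 48 h in lateral root they were 2 with a pseudocount of 0.1, 5 with the replicate block and 18 in a fit of 2 groups, and 0 to 17 with libraries left out. In leaf at 24.5 h they were 4 with a mean of at least 5 TPM and 5 in a fit of 2 groups, and 2 to 3 with libraries left out. In leaf they ranged from 15 to 18 at 3 h and from 0 to 1 at 48 h, the 1 being without leaf 48 h replicate 3. In primary root at 48 h they were 1 without a filter, 1 with median-of-ratios scaling, 1 with the replicate block and 11 in a fit of 2 groups, and 0 to 2 with libraries left out. For lateral root minus leaf they ranged from 5 to 13. Membership ranged from 39 genes, without primary root 0 h replicate 1, to 109, without 0 h replicate 2, with 37 to 66 of the 66 kept over all libraries left out. Elsewhere same-numbered libraries did not all deviate together in the comparisons checked, each of which was within a tissue. The replicate block gave 18 members in lateral root at 3 h and 18 at 24.5 h. In leaf it gave 16 at 3 h, 2 at 24.5 h and 0 at 48 h, and for lateral root minus leaf 7. Median-of-ratios scaling moved the median of all genes by -0.21 in lateral root and -0.14 in leaf at 3 h, and by 0.12 in leaf at 48 h. Depth is unknown, so low values have no counting interval.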
